A study of Mus musculus with 8 samples.

Results

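The mast cell genes of the healthy mouse esophagus were 10 gene symbols of the count table, chosen by name as proteases, receptors and other hallmark genes of connective tissue mast cells, out of the 32849 symbols listed. The libraries were made from poly(A) RNA of frozen esophagus tissue, 4 from MGL KO and 4 from WT animals. MGL KO mice lack monoacylglycerol lipase (MGL, gene Mgll) in the whole body, so mast cells and all other cells of the tissue carried the deletion, and they were bred in-house with WT littermates. No animal was treated, and the labels give neither age, sex nor strain. All 10 genes had counts, but only 6 of them (Mcpt4, Cma1, Tpsb2, Kit, Hdc and Gata2) had enough to be tested among the 14864 genes that passed the filter on low counts (filterByExpr of edgeR, minimum count 10). For all 6 the adjusted p of edgeR's quasi-likelihood test was 0.676 or more.

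Mast cells leave the bone marrow as progenitors and mature in tissues under stem cell factor, which acts on the receptor tyrosine kinase Kit. Connective tissue mast cells store chymases, tryptase, carboxypeptidase A3 and histamine on heparin in their granules, whereas mucosal mast cells store other chymases. They release their granules when antigen cross-links IgE on the high-affinity receptor FcεRI or when ligands bind Mas-related receptors, and mast cells are known to accumulate beside eosinophils in eosinophilic esophagitis.

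The libraries held between 13479069 and 17090152 counts. Counts were scaled to CPM (counts relative to library size, here the sum over the tested genes multiplied by its TMM factor). A gene with 0 counts could have had up to 3, which corresponds to 0.167 to 0.271 normalized CPM depending on the library. Such limits, and all intervals of counts and shares, cover counting error only. Genes that define the esophagus were abundant in every library, with at least 16223 counts of the squamous keratin gene Krt13 and 257889 of the skeletal muscle gene Acta1. Mgll itself was at 13.7 ± 1.54 normalized CPM in MGL KO and 81.2 ± 9.97 in WT esophagi (SD, n = 4 each). Sums of a set of Y-linked genes lay between 185.6 and 223.7 normalized CPM in all 8 libraries. The X-linked gene Xist was at 6.23 normalized CPM in MGL KO replicate 2 and at 0.184 to 0.787 elsewhere. MGL KO replicate 4 held 5785 normalized CPM of a set of 7 airway ciliated and secretory genes against at most 49.1 elsewhere. WT replicate 1 held 276.0 normalized CPM of 4 leukocyte genes against at most 112.7 elsewhere. Values of the mast cell genes that turn on either library are therefore given with and without it where a test or mean was computed. Since these are bulk tissue libraries, fewer mast cells and less RNA per mast cell cannot be told apart.

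The 10 genes lie on 9 chromosomes of the mouse genome GRCm39 (GENCODE release 39). Mcpt4 and Cma1 share a cluster on chromosome 14, and Gata2 (chromosome 6, 88170559 to 88184018, forward strand) lies 0.468 Mb from Mgll. The 200 bases before the annotated start of the canonical transcript were searched on both strands for the words AGATAA and also TGATAA, as well as AGATAG and also TGATAG, the letters that GATA factors bind, allowing overlaps. At least 1 match stood in 7 of the 10 windows, namely those of Cpa3, Mcpt4, Cma1, Ms4a2, Fcer1a, Mrgprb1 and Gata2, and 20.8% of the 21757 protein-coding windows of the same length held one. Ms4a2 and Mrgprb1 had 2 matches, as 4.11% of all windows had 2 or more. The windows of Cpa3, Mcpt4 and Cma1, the proteases with a match, and of the α and β chains of FcεRI are shown 5′ to 3′ in the direction of transcription, with the matches in capitals. Tpsb2, Kit and Hdc had no match.
Cpa3, chr3:20296363-20296562, reverse strand: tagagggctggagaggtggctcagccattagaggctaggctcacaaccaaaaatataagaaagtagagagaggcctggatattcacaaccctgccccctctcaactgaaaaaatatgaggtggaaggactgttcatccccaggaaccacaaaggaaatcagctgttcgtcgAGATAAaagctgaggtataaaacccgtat
Mcpt4, chr14:56299771-56299970, reverse strand: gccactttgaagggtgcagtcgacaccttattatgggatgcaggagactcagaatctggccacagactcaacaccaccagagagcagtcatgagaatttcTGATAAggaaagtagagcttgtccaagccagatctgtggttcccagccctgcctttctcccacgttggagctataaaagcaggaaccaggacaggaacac
Cma1, chr14:56182133-56182332, reverse strand: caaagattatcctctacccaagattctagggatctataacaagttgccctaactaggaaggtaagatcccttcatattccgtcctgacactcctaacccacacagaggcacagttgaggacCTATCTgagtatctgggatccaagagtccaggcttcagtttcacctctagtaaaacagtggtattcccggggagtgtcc
Ms4a2, chr19:11601084-11601283, reverse strand: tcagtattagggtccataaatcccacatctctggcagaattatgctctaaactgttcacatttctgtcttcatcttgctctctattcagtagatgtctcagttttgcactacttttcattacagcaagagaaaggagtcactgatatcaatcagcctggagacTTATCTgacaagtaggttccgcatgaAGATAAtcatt
Fcer1a, chr1:173054782-173054981, reverse strand: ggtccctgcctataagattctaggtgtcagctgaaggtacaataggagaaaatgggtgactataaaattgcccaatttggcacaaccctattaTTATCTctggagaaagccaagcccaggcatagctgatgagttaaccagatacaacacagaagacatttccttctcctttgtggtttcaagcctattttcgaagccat
In these windows the match of Cpa3 stands closest to the start among these proteases. Those of Cma1 and Fcer1a, and the first of Ms4a2, are spelled on the opposite strand. A match is a description of letters and was not tested as a binding site.

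The granule proteases were detected at low levels, and their levels differed more among the WT libraries than between the means of the genotypes. Mcpt4 encodes a chymase of connective tissue mast cells and lies at chr14:56297086-56299770 on the reverse strand. Its counts were 15, 6, 26 and 8 in MGL KO replicates 1 to 4 and 54, 27, 9 and 17 in WT replicates 1 to 4. WT replicate 1 was highest, MGL KO replicate 2 had the fewest counts, and the groups overlapped. Mcpt4 was at 0.878 ± 0.524 normalized CPM in MGL KO and 1.56 ± 1.04 in WT esophagi (SD, n = 4 each). Its log2 fold change (MGL KO minus WT) was -0.82 with a standard error of 0.57 and a 95% interval from -2.11 to 0.46 (adjusted p = 0.690, quasi-likelihood test of edgeR, p-values adjusted by Benjamini-Hochberg over all tested genes). Without WT replicate 1 it was -0.29.

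Cma1, also called mast cell protease 5, is a chymase gene at chr14:56178908-56182132 on the reverse strand. It had 7, 2, 24 and 5 counts in MGL KO replicates 1 to 4 and 86, 12, 2 and 20 in WT replicates 1 to 4. The 86 counts of WT replicate 1 have an exact 95% Poisson interval from 68.8 to 106.2, and the 20 counts of WT replicate 4 one from 12.2 to 30.9, and both libraries are WT. Cma1 was at 0.592 ± 0.600 normalized CPM in MGL KO and 1.73 ± 2.10 in WT (SD, n = 4 each), a log2 fold change of -1.52 with a 95% interval from -3.71 to 0.68 (adjusted p = 0.676, edgeR's quasi-likelihood test). Without WT replicate 1 the log2 fold change was -0.22.

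Tpsb2 encodes the mast cell tryptase mMCP-6 and lies at chr17:25585170-25588079 on the forward strand. Its counts were 10, 4, 34 and 9 in MGL KO replicates 1 to 4 and 83, 16, 1 and 16 in WT replicates 1 to 4. WT replicate 1 and MGL KO replicate 3 stood above the other libraries of their groups, and WT replicate 3 was lowest. The means were 0.894 ± 0.808 normalized CPM in MGL KO and 1.66 ± 2.02 in WT esophagi (SD, n = 4 each), and the log2 fold change of -0.88 had a 95% interval from -3.03 to 1.26 (adjusted p = 0.791, edgeR's quasi-likelihood test). It turned to 0.41 without WT replicate 1.

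Cpa3, the carboxypeptidase that trims peptides in the granule, lies at chr3:20269774-20296362 on the reverse strand and was too low to be tested. It had 3, 2, 6 and 5 counts in MGL KO replicates 1 to 4 and 35, 8, 0 and 8 in WT replicates 1 to 4. The MGL KO libraries thus lay inside the WT range. Cpa3 was at 0.254 ± 0.0904 normalized CPM in MGL KO and 0.733 ± 0.846 in WT (SD, n = 4 each), and at 0.326 ± 0.284 in WT without WT replicate 1 (SD, n = 3). In the fit of all genes with a count, its log2 fold change was -1.50 (adjusted p = 0.675, edgeR's quasi-likelihood test).

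**Figure D1:**
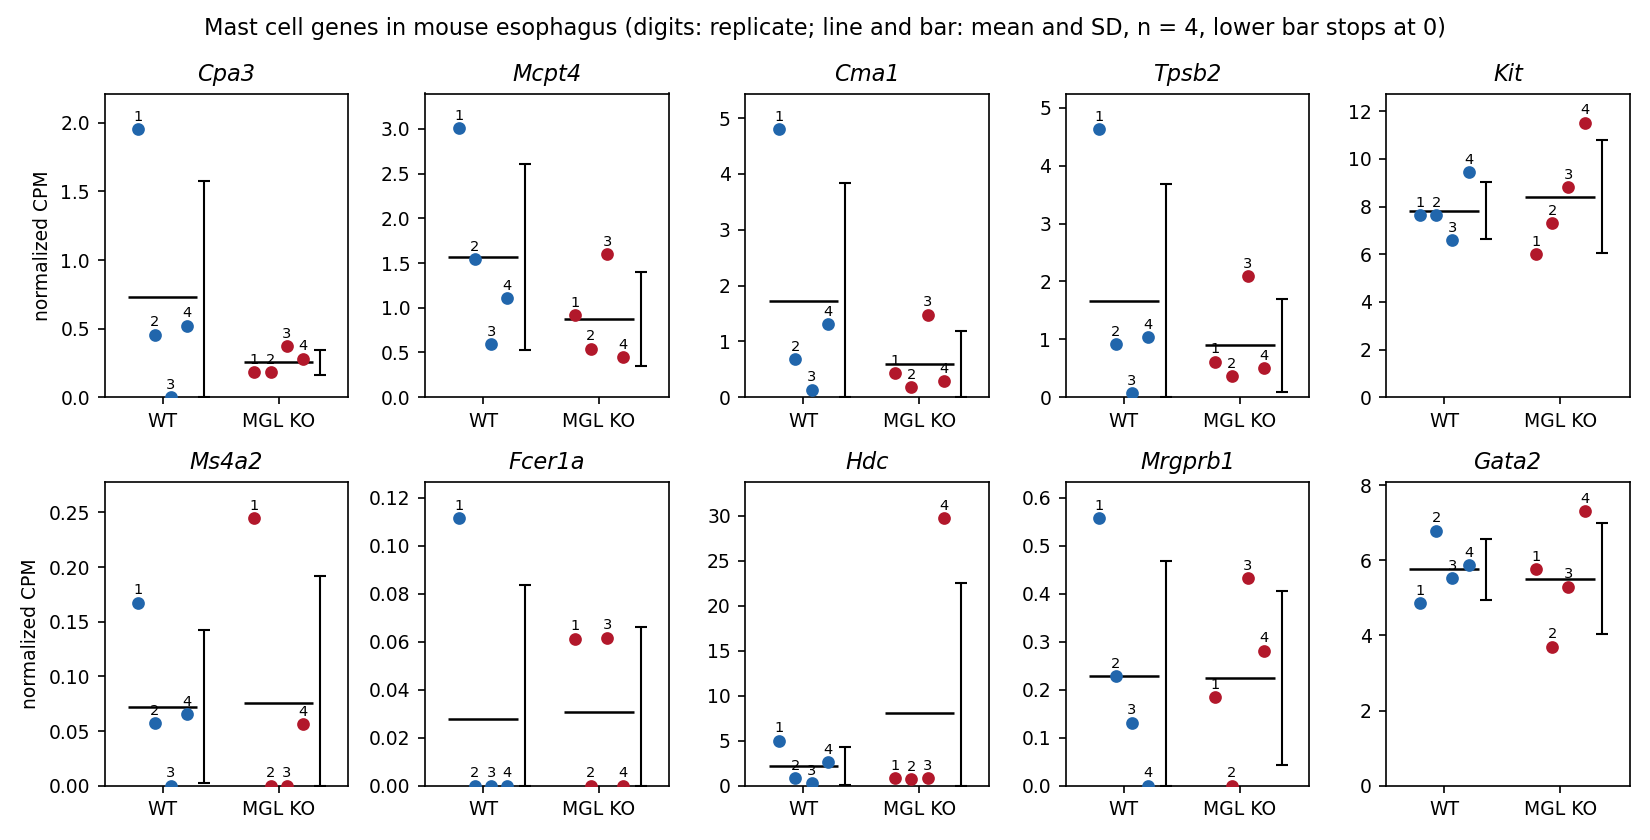
Normalized CPM (vertical axes, a separate linear scale for each gene) of the 10 mast cell genes in the 4 WT (blue) and 4 MGL KO (red) libraries, with digits for the replicate, a line for the mean and a bar for the SD. WT replicate 1 is the highest library for all 4 proteases, and MGL KO replicate 4 is the only library above 10 normalized CPM of Hdc, at 29.8.

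The 4 proteases followed one another across the esophagi. Their sum was 14.4 normalized CPM in WT replicate 1, 5.55 in MGL KO replicate 3, 3.98 in WT replicate 4, 3.6 in WT replicate 2, 2.14 in MGL KO replicate 1, 1.52 in MGL KO replicate 4, 1.26 in MGL KO replicate 2 and 0.789 in WT replicate 3. The highest and the lowest library were both WT. The mean sum was 2.62 ± 1.99 in MGL KO and 5.69 ± 5.97 in WT (SD, n = 4 each), a ratio of 0.460. Without WT replicate 1 the WT mean was 2.79 ± 1.74 (SD, n = 3) and the ratio 0.939. As a description over 8 libraries that share scaling and low counts, the 6 pairs of proteases had Pearson r between 0.78 and 0.95 on the log2 scale (Spearman rho 0.74 to 1.00), and between 0.56 and 0.91 without WT replicate 1.

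The shares of the 4 genes in the protease counts had overlapping intervals in MGL KO and WT. Mcpt4 took 33.1% of the 166 protease counts of the MGL KO libraries (95% Wilson interval 26.4% to 40.6%) and 27.2% of the 394 of the WT libraries (23.0% to 31.8%). Cma1 took 22.9% (17.2% to 29.9%) and 30.5% (26.1% to 35.2%), Tpsb2 34.3% (27.5% to 41.8%) and 29.4% (25.2% to 34.1%), and Cpa3 9.64% (6.02% to 15.1%) and 12.9% (9.98% to 16.6%). WT replicate 1 gave 258 of the 394 WT counts, and without it Mcpt4 took 39% (31.2% to 47.4%), Cma1 25% (18.5% to 32.9%), Tpsb2 24.3% (17.8% to 32.1%) and Cpa3 11.8% (7.37% to 18.3%) of 136 WT counts, so that Mcpt4 changed sides relative to MGL KO. Pooling hides differences between esophagi of one genotype, since Mcpt4 took 20.9% (16.4% to 26.3%) in WT replicate 1 and 42.9% (31.4% to 55.1%) in WT replicate 2.

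Within the chymase cluster, reads were almost limited to the genes of connective tissue mast cells. Over all 8 libraries, Mcpt4 had 162 and Cma1 158 counts, whereas Mcpt1, Mcpt9 and Cma2 had 0 and Mcpt2 and Ctsg had 2 each. Mcpt1 and Mcpt2 are the chymases of mucosal mast cells, and Mcpt8, a basophil protease of the same cluster, also had 2 counts. Gzmb, a granzyme of cytotoxic lymphocytes at the far end of the cluster, had 20. Of the 50-base stretches of Mcpt4 transcripts, 8.03% also occur in transcripts of other genes, mainly Cma2, which had no counts here. Cma1 shared 4.25% of its stretches with the gene model Gm48934, and Tpsb2 shared none.

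**Figure D2:**
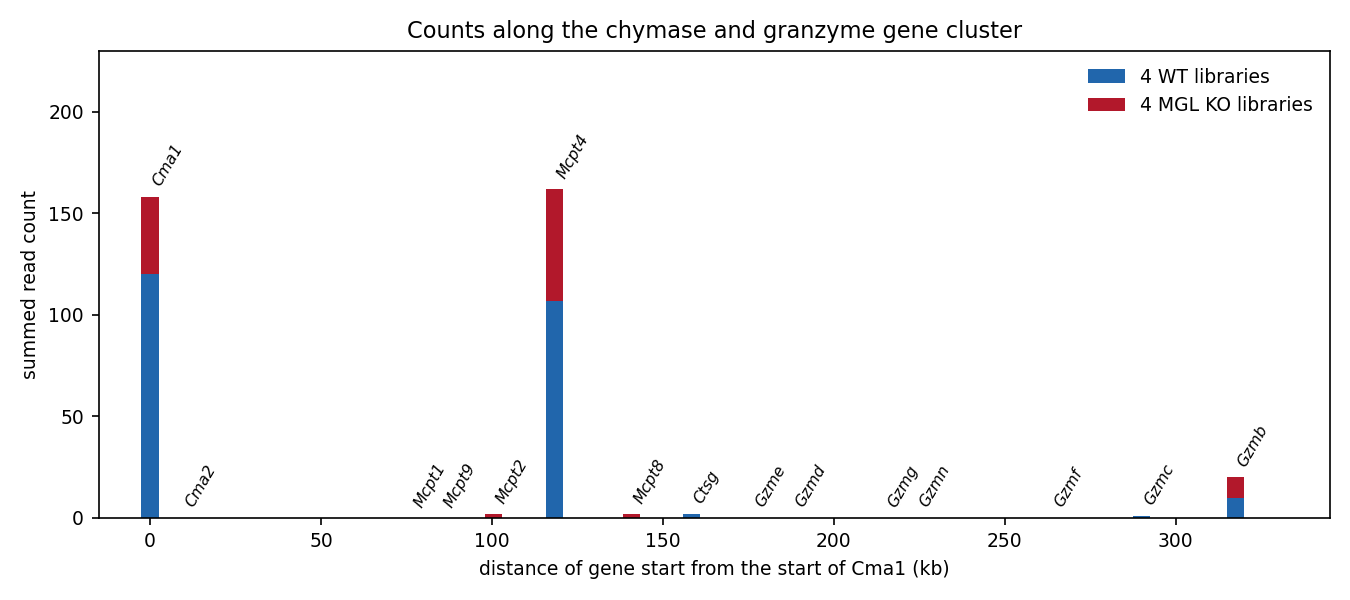
Summed read counts (vertical axis) of genes of the chymase and granzyme cluster on mouse chromosome 14 against the distance of the gene start from that of Cma1 (horizontal axis, kb), stacked for 4 WT (blue) and 4 MGL KO (red) libraries. Cma1 with 158 and Mcpt4 with 162 counts stand out, and the next gene, Gzmb, has 20.

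The receptor chains that bind IgE were at the limit of detection, while Kit was well covered. Ms4a2, the β chain of FcεRI (chr19:11592887-11601083, reverse strand), had 4, 0, 0 and 1 counts in MGL KO replicates 1 to 4 and 3, 1, 0 and 1 in WT replicates 1 to 4. Fcer1a, the IgE-binding α chain (chr1:173048851-173054781, reverse strand), had 1, 0, 1 and 0 counts in MGL KO and 2, 0, 0 and 0 in WT replicates. At 10 and 4 counts over 8 libraries, a difference between genotypes was not detectable in either chain, and no fold is given. Ms4a2 shares 2.06% of its 50-base stretches with Ms4a4b, which had 229 counts over 8 libraries. The part of Ms4a4b in the counts of Ms4a2 was not tested.

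Mrgprb1, a Mas-related receptor gene of mouse connective tissue mast cells (chr7:48093861-48106093, reverse strand), had 3, 0, 7 and 5 counts in MGL KO and 10, 4, 2 and 0 in WT replicates 1 to 4. It was at 0.224 ± 0.181 normalized CPM in MGL KO and 0.229 ± 0.238 in WT esophagi (SD, n = 4 each). Both groups held a library at 0, and without WT replicate 1 the WT mean was 0.120 ± 0.115 (SD, n = 3).

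Kit, the receptor for stem cell factor (chr5:75735576-75817404, forward strand), is also made by interstitial cells of Cajal and melanocytes. It was at 6.0, 7.31, 8.82 and 11.5 normalized CPM in MGL KO replicates 1 to 4 and at 7.64, 7.65, 6.57 and 9.45 in WT replicates 1 to 4. The MGL KO libraries spread on both sides of the WT range. The means of 8.41 ± 2.37 and 7.83 ± 1.19 (SD, n = 4 each) gave a log2 fold change of 0.11 with a 95% interval from -0.42 to 0.63 (adjusted p = 0.906, edgeR's quasi-likelihood test). Kit had 81 to 205 counts per library. As a description, its Pearson r with the 4 proteases lay between -0.12 and 0.33 over 8 libraries and between -0.09 and 0.55 without WT replicate 1. A set of 4 genes of interstitial cells of Cajal, led by Thbs4 and Ano1, summed to 141.4 to 229.4 normalized CPM in MGL KO and 155.9 to 205.0 in WT, with none at 0. A set of 5 melanocyte genes, led by Pmel and Mlana, summed to 2.03 to 3.32 normalized CPM in MGL KO and 1.76 to 3.01 in WT. Pmel had 21 to 50 counts per library and Mlana 20 in MGL KO replicate 4 and at most 3 elsewhere, while Tyr, which encodes the enzyme that starts melanin synthesis, had at most 1. The part of other cells in the level of Kit was not tested.

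Hdc, which encodes the histidine decarboxylase that makes histamine (chr2:126435558-126461318, reverse strand), was set apart by a single library. It was at 0.857, 0.722, 0.802 and 29.8 normalized CPM in MGL KO replicates 1 to 4 and at 5.02, 0.799, 0.263 and 2.61 in WT replicates 1 to 4. The 530 counts of MGL KO replicate 4 were far above the 14 or fewer of the other MGL KO libraries, although its protease sum ranked sixth of the 8. The means were 8.04 ± 14.5 in MGL KO and 2.17 ± 2.15 in WT (SD, n = 4 each), with a log2 fold change of 1.89 and a 95% interval from -1.17 to 4.94 (adjusted p = 0.702, edgeR's quasi-likelihood test). Without MGL KO replicate 4 the log2 fold change was -1.44 (adjusted p = 0.579). In that library the airway set was at 5785 normalized CPM and a set of 5 neutrophil genes, led by Csf3r and S100a9, at 17.7 against at most 4.59 in the rest of its group. Csf3r had 172 counts there against 23 or fewer in the rest of its group, S100a8 had 62 against 13 or fewer, and Ly6g had 0 in all MGL KO libraries. S100a9 had 76 counts there against 51 or fewer in the rest of its group, inside its WT range of 42 to 81. In WT the neutrophil set ranged from 5.13 to 21.3, with the highest sum in WT replicate 1, where Hdc was at 5.02. Their part in the Hdc level was not tested. The Pearson r of Hdc with the 4 proteases lay between -0.03 and 0.51 over 8 libraries and between -0.35 and 0.44 without WT replicate 1, and MGL KO replicate 3, second in protease sum, had Hdc at 0.802.

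Gata2, a transcription factor gene of mast cell progenitors that endothelial cells also express, was at 5.76, 3.70, 5.30 and 7.31 normalized CPM in MGL KO replicates 1 to 4 and at 4.85, 6.79, 5.52 and 5.87 in WT replicates 1 to 4. The groups overlapped, with MGL KO libraries at both ends. The log2 fold change of -0.06 had a 95% interval from -0.60 to 0.49 (adjusted p = 0.953, edgeR's quasi-likelihood test). Gata2 had a Pearson r between -0.05 and 0.00 with the proteases over 8 libraries and between 0.17 and 0.26 without WT replicate 1. A set of 6 endothelial genes, led by Pecam1 and Cdh5, summed to 147.7 to 275.1 normalized CPM in MGL KO and 190.3 to 265.9 in WT, and its part in the level of Gata2 was not tested. Gata2 shares 8.27% of its 50-base stretches with Spehd on the opposite strand, Cpa3 shares 6.44% with Gm31320, also on the opposite strand, and the use of strand in the authors' counting is not given in the sources used here.

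Per kb of exon, the order of the genes by their median over 8 libraries was Mcpt4 at 0.915 normalized CPM per kb, Kit at 0.807, Gata2 at 0.703, Cma1 at 0.511, Tpsb2 at 0.348, Cpa3 at 0.204, Hdc at 0.121, Mrgprb1 at 0.0492, Ms4a2 at 0.0201 and Fcer1a at 0. The range of every gene over the libraries overlapped with those of its neighbours in this order. Within libraries, Cma1 was above Tpsb2, Tpsb2 above Cpa3 and Hdc above Mrgprb1 in 8 of 8, whereas the other neighbours kept the order in 4 to 6 of 8. Kit and Gata2 ranged from 0.634 to 1.22 and from 0.461 to 0.911 normalized CPM per kb. Cma1 ranged from 0.121 to 4.40 and Tpsb2 from 0.0300 to 2.11. The biological coefficient of variation within genotypes, as edgeR estimates it, was 0.897 for Cma1, 0.898 for Tpsb2, 0.536 for Mcpt4 and 1.18 for Hdc, against 0.271 for Kit, 0.283 for Gata2 and a median of 0.229 over all tested genes.

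**Figure D3:**
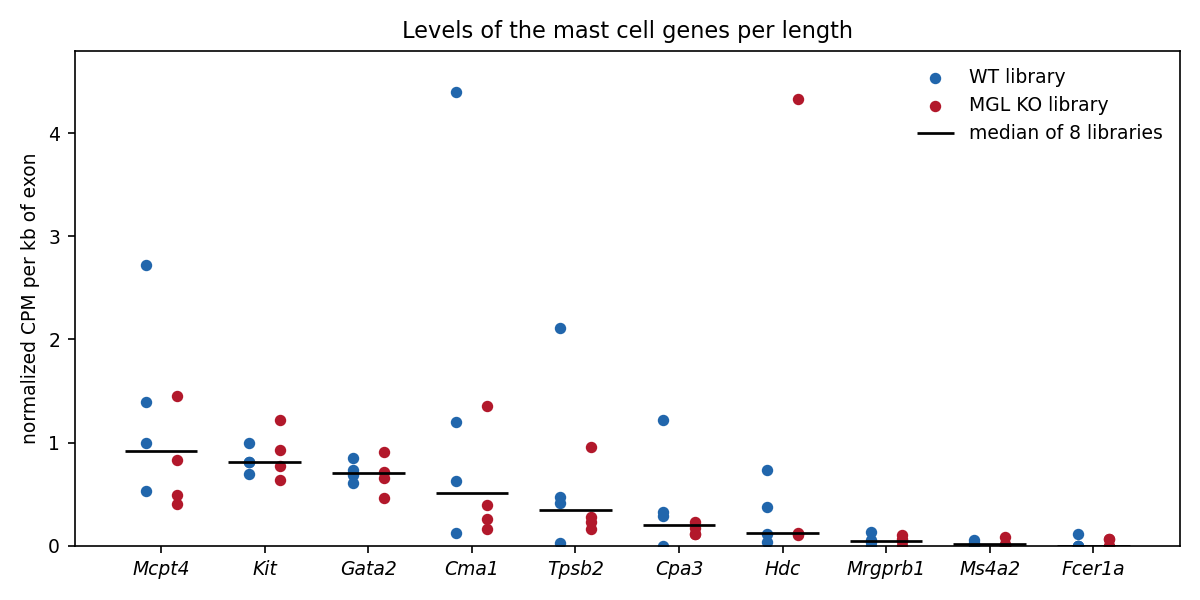
Normalized CPM per kb of exon (vertical axis) of the 10 mast cell genes, ordered by the median of 8 libraries (black line), with WT libraries in blue and MGL KO libraries in red. Kit and Gata2 lie in narrow bands around 0.807 and 0.703, whereas single libraries of Cma1 and Hdc exceed 4 on the same scale.

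Across all tested genes, 0.0471% were called in MGL KO against WT at an adjusted p under 0.05 by edgeR's quasi-likelihood test, against 0 of the 6 tested mast cell genes. At an unadjusted p under 0.05 the background was 8.65% and the count again 0 of 6, with p-values of 0.153 or more. At an adjusted p under 0.10 the background was 0.0875% and the count 0 of 6. The exact test of edgeR called 0 of 6 (background 0.437%, and 7.46% at an unadjusted p under 0.05), as did limma-voom with quality weights (0.168%, and 11.4% unadjusted). DESeq2 (0.907%, and 6.79% unadjusted) and the quasi-likelihood fit of all genes with a count (0.0088%, and 7.73% unadjusted) called 0 as well, the latter of all 10 genes. DESeq2 gave an adjusted p for 5 of the 10 and an unadjusted p for 9, with none for Hdc. No p-value that these tools gave for a mast cell gene was under 0.05 before adjustment. The groups overlapped for all 10 genes, while they did not overlap for 6.02% of all tested genes. Of the 6, 4 had a fitted log2 fold change below 0, as had 47.0% of all tested genes, and the median was -0.44 against 0.02 over all tested genes. Without WT replicate 1 the median was -0.02 with 3 of 6 below 0, and without MGL KO replicate 4 it was -0.64 with 6 of 6. The two-sided exact permutation test of single genes gave p-values from 0.286 to 1, where 4 libraries against 4 allow no p below 0.0286. The wide intervals of the proteases leave room for changes in either direction, so these values do not show that the genotypes were alike.

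**Figure D4:**
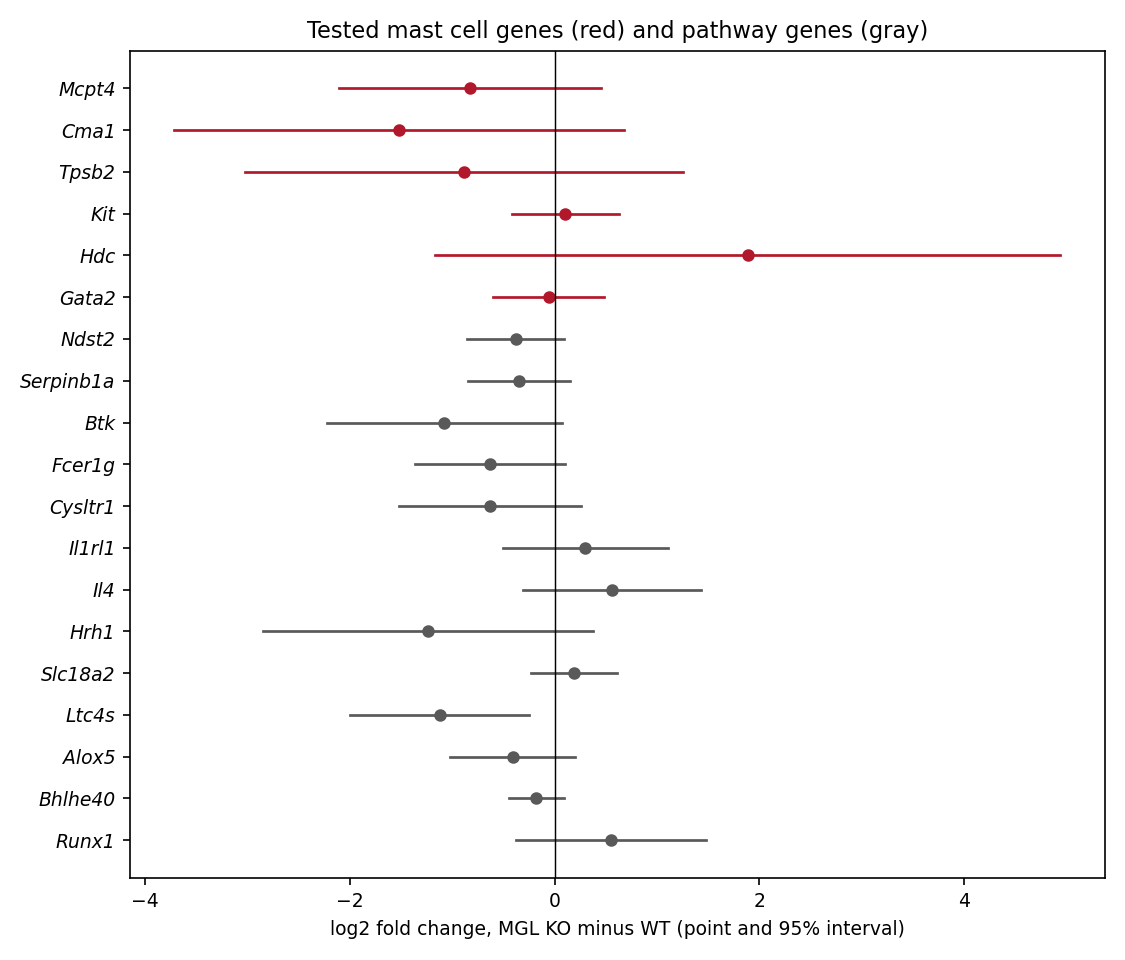
Log2 fold change, MGL KO minus WT, with its 95% interval (horizontal axis) for the 6 tested mast cell genes (red) and named genes of 7 lists of related genes (gray). The intervals of all 6 mast cell genes cross 0, those of Cma1, Tpsb2 and Hdc being the widest, and the interval of Ltc4s lies below 0 before adjustment and with all 8 libraries.

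Other genes of mast cell biology were grouped in 7 lists. Of 54 genes, 35 were tested, and edgeR's quasi-likelihood test called 0 of them at an adjusted p under 0.05. At an unadjusted p under 0.05 there were 2, or 5.71% against the background of 8.65%. That number was 0 without WT replicate 1 and 5 without MGL KO replicate 4. The edgeR exact test, DESeq2 and limma-voom called 0 as well. In total 24 had a fitted value below 0 and 11 above, with a median log2 fold change of -0.25, where 47.0% of all tested genes were below 0 and their median was 0.02. All 4 leukocyte genes were also below 0, with a median of -0.72, and their sum was highest in WT replicate 1. All 6 genes of a fibroblast list (median -0.31) and all 6 endothelial genes (median -0.17) were below 0 too. All 5 genes of an adipocyte list were above 0 (median 0.40). The part of these cell types in the values of the related genes was not tested.

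The proteoglycan and protease list had 3 tested genes of 10, all with fitted values below 0 and none called. Srgn, the serglycin core of the granule that other leukocytes also make, was at 9.37, 7.40, 10.5 and 17.9 normalized CPM in MGL KO and 34.8, 7.88, 7.30 and 9.97 in WT replicates. WT replicate 1 again stood above all others, and the log2 fold change of Srgn was 0.43 without it. Tpsab1, the other mast cell tryptase, had at most 4 counts in any library, and Mrgprb2, the Mas-related receptor for basic secretagogues, at most 3.

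In the FcεRI signaling list, all 8 genes were tested and 7 had fitted values below 0. Fcer1g, the γ chain that FcεRI shares with other Fc receptors, was at 6.86, 8.39, 7.34 and 6.35 normalized CPM in MGL KO and 20.2, 8.50, 7.96 and 8.02 in WT replicates. Its log2 fold change was -0.63 (adjusted p = 0.629, edgeR's quasi-likelihood test). Btk, a kinase downstream of the receptor and of the B cell receptor, was at 2.51 ± 0.763 in MGL KO and 5.31 ± 4.20 in WT (SD, n = 4 each) with an adjusted p of 0.603. Both were highest in WT replicate 1, without which the log2 fold change was -0.18 for Fcer1g and -0.37 for Btk.

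Among the growth factors and alarmins, 3 of 5 tested genes were below 0 and none was called. Kitl, which encodes stem cell factor, was at 22.4 ± 3.21 normalized CPM in MGL KO and 24.4 ± 2.02 in WT (SD, n = 4 each). Il3 and Il9, cytokines that expand mast cells, had 0 counts in all libraries.

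Among the eicosanoid enzymes, 5 of 7 tested genes were below 0 and none was called. Ltc4s, the leukotriene C4 synthase that mast cells, eosinophils and macrophages use, was at 0.980, 0.632, 1.36 and 0.674 normalized CPM in MGL KO and at 3.24, 1.43, 1.45 and 1.89 in WT replicates. Every MGL KO library lay below every WT library, as in 3.3% of all tested genes. The log2 fold change was -1.12 with a 95% interval from -2.0 to -0.24 (adjusted p = 0.509, edgeR's quasi-likelihood test). Without WT replicate 1 it was -0.79, with an unadjusted p of 0.0615 and an adjusted p of 0.749 by the same edgeR test. Of the histamine genes, 2 of 3 tested were below 0, and Slc18a2, the transporter that loads histamine into granules and is also found in neurons, was at 5.32 ± 0.569 in MGL KO and 4.66 ± 0.413 in WT (SD, n = 4 each). Of the transcription factors, 2 of 5 tested were below 0, and 2 of 4 in the list of other receptors, with none called in either.

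The protease levels were set beside markers of other cell types. The 4 leukocyte genes, led by Laptm5 and Coro1a, summed to 54.7 to 112.7 normalized CPM in MGL KO and 44.6 to 276.0 in WT, and the protease sum was 4.04% ± 3.51 of the leukocyte sum in MGL KO and 4.28% ± 1.74 in WT (SD, n = 4 each). That share was highest in MGL KO replicate 3 at 9.16% and lowest in MGL KO replicate 4 at 1.35%. The 6 fibroblast genes, led by Col3a1 and Dcn, summed to 1358 to 3184 normalized CPM in MGL KO and 1994 to 3073 in WT and were highest in MGL KO replicate 3 and WT replicate 1, the libraries with the most protease. As a description over 8 libraries with shared scaling, the log2 protease sum had a Pearson r of 0.82 with the fibroblast sum, 0.73 with the endothelial sum and 0.73 with the leukocyte sum. Without WT replicate 1 these were 0.78, 0.74 and 0.29. The basophil list had an r of 0.87 over 8 libraries and 0.73 without WT replicate 1. Epithelial and other lists also varied with the proteases, since without WT replicate 1 the r was 0.73 for interstitial cells of Cajal, 0.72 for basal and 0.69 for differentiated squamous epithelium, against 0.24, 0.59 and 0.48 with it. The muscle lists had a negative r, of -0.55 for smooth and -0.42 for skeletal muscle over 8 libraries. Without WT replicate 1 these were -0.40 and -0.29.

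**Figure D5:**
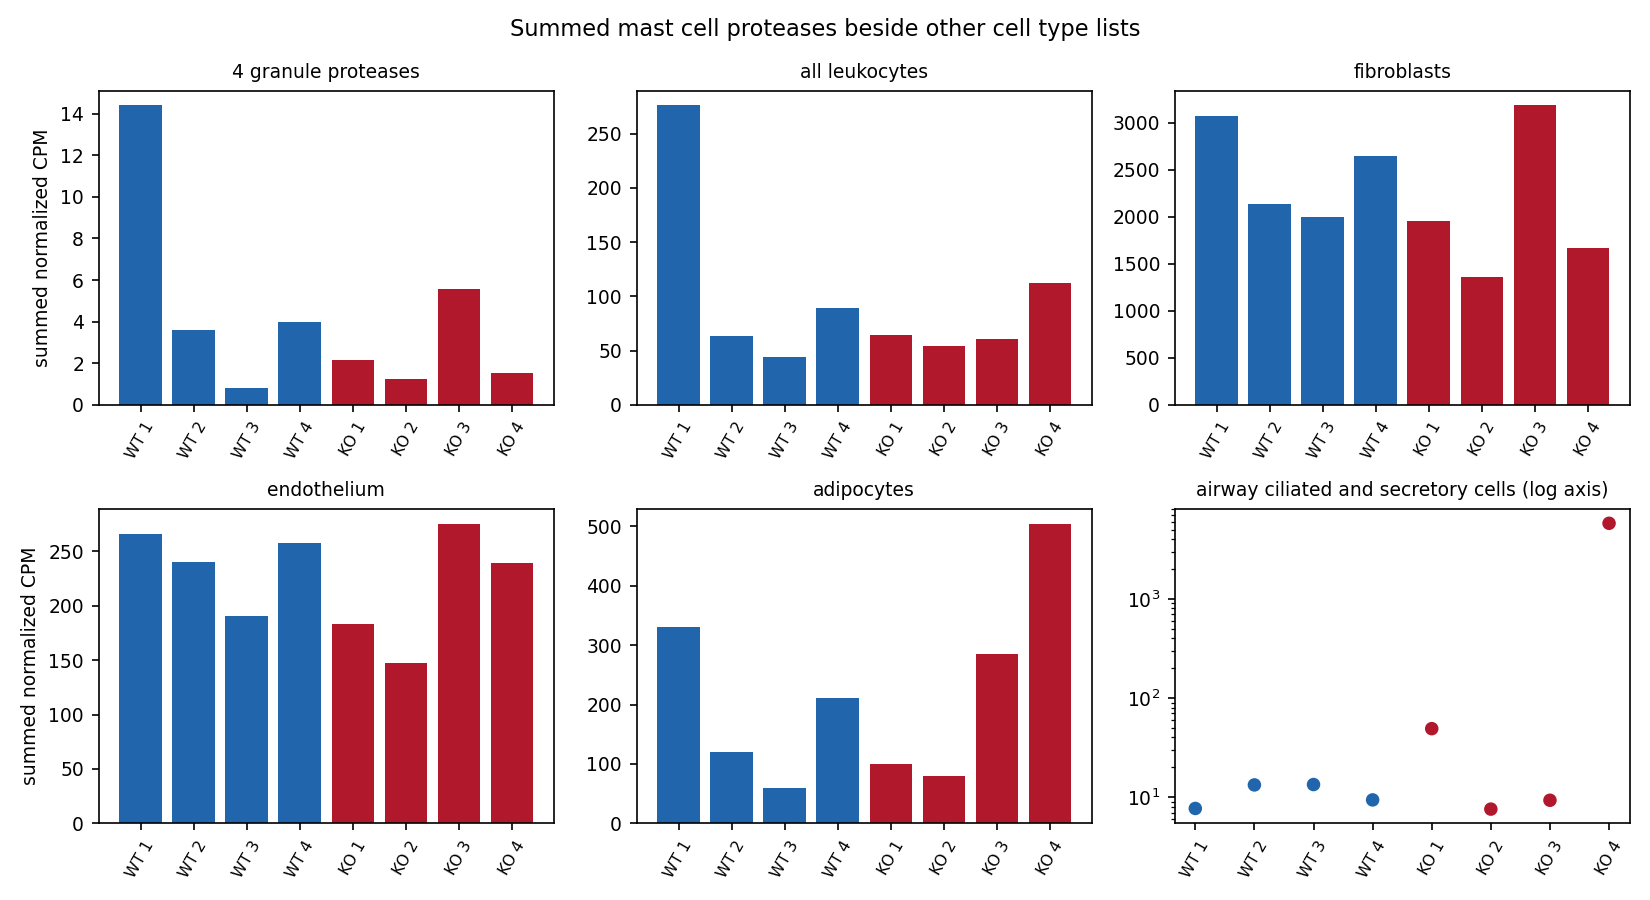
Summed normalized CPM (vertical axes, bars from 0, with a log axis and points for the airway set) of the 4 granule proteases and of 5 other cell type lists in each WT (blue) and MGL KO (red) library. WT replicate 1 has the highest protease sum (14.4) and leukocyte sum (276.0), and MGL KO replicate 4 the highest airway sum (5785).

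Adipocyte genes (5, led by Fabp4 and Plin1) summed to 79.8 to 503.9 normalized CPM in MGL KO and 59.0 to 330.2 in WT. Their part, and that of the fibroblast and leukocyte genes, in the protease levels was not tested. Defining basophil markers were near 0, with at most 2 counts of Mcpt8, 2 of Prss34 and 3 of Cd200r3 in any library, and the basophil list sum of 16.5 to 26.9 normalized CPM in MGL KO and 22.1 to 37.7 in WT came mostly from Itga2b, Csf2rb2 and Il3ra, which other blood cells also express. Csf2rb2 had a log2 fold change of -1.14 (unadjusted p = 0.0352, adjusted p = 0.550, edgeR's quasi-likelihood test). Of all tested genes, 8.65% had an unadjusted p under 0.05. Csf2rb2 was at 15.8 normalized CPM in WT replicate 1, 5.26 to 8.34 in the other WT libraries and 1.71 to 6.41 in MGL KO. Its fold without WT replicate 1 is not given here. Eosinophil genes were also low, with a list sum of at most 3.24 normalized CPM. Ear2, the most abundant and the one that was tested, had 1 to 27 counts and a log2 fold change of 0.77 (adjusted p = 0.749, edgeR's quasi-likelihood test), and Epx and Ear6 were at 0 in all libraries.

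By the rule that named the 5 tested genes whose log2 level followed the mean of the 10 mast cell genes most closely over 8 libraries, these were Arhgdib (Pearson r 0.98), Cyb561a3 (0.98), Podxl (0.97), Lvrn (0.97) and Cxcl13 (0.97). They were the closest of 14858 genes and are given as a description with no p. Cxcl13, a B cell chemokine, reached 51.0 normalized CPM in WT replicate 1, while the other 7 libraries ranged from 0.197 to 4.33. Podxl, an endothelial and podocyte sialomucin, ranged from 29.0 to 69.6. In all 5, WT replicate 1 was the highest library, and the adjusted p between the genotypes was 0.604 or more by edgeR's quasi-likelihood test.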

How the data were processed

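RNA-seq of 4 MGL KO and 4 WT esophagi was analysed, with groups and replicate numbers taken from the sample labels. The authors checked reads with FastQC 0.11.9, trimmed adapters with Cutadapt, aligned with STAR 2.7.10b to GRCm39 and deposited raw counts per gene symbol. The counting tool, annotation and strand setting are not given in the sources used here. The labels do not say more of the animals, so p-values measure the spread between these samples.

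The members and all gene lists were chosen with earlier results of these data known. Genes were filtered by filterByExpr (minimum count 10), scaled by TMM and compared with the quasi-likelihood test of edgeR 4.0.16 in R 4.3.3, adjusted by Benjamini-Hochberg over all tested genes. Standard errors are the log2 fold change over the square root of F. Log2 levels for correlations added 1 count of a mean library. The edgeR exact test, which the study's methods name, DESeq2 1.42.0, limma-voom with quality weights (limma 3.58.1), other scalings, filters and thresholds, a Y-linked covariate, a replicate block and each library left out were alternatives. Scripts were tested on simulated data. Positions, exon lengths, shared 50-base stretches and upstream sequences came from GENCODE release 39 on GRCm39, where 93.6% of symbols were found.

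Named genes were the 10 members, Mgll, the 2 genes of smallest p in each of 7 related lists, the 2 most abundant genes of the cell type lists and the 5 genes most like the members. Protein identity, part of the same rule, was not used here, and some genes that the rule names are not reported here, though list counts include them. Genes named beyond the rule (Srgn, Tpsab1, Mrgprb2, Kitl, Il3, Il9, cluster genes and markers) were chosen after their values were seen. Library pairs of one group differed by a chi-square per degree of freedom of 13.6 or more.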

Additional observations from a re-analysis of the deposited data

Results flagged for a closer look

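A library far from the other 3 of its group (a gap beyond Dixon's 95% critical value) was found 11 times in 79 groups of 4 values. A rate of 1 in 20 would give 3.95, but it holds only for independent and normally distributed values. The groups here share libraries, and many hold low, skewed counts. A group with counts in only 1 library is flagged however few they are. The number of flags can therefore not be compared with chance.

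In MGL KO replicate 4, Hdc lay far above the rest of its group (29.8 normalized CPM, next 0.857), and so did the airway set (5785, next 49.1), the neutrophil set (17.7, next 4.59), the leukocyte set (112.7, next 64.3) and the mucosal mast cell set (0.112, others 0), the last from 2 counts of Mcpt2. WT replicate 1 stood apart in Fcer1g (20.2 normalized CPM, next 8.50), Runx1 (18.4, next 12.5), the eosinophil set (3.24, next 0.799) and Fcer1a (0.112 from 2 counts, others 0). Tpsb2 was high in MGL KO replicate 3 (2.10 normalized CPM, next 0.612), and the basal squamous set was low in WT replicate 3 (2986, next 4420). The source of these differences was not tested.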

How the results depend on the processing

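The count of 0 called mast cell genes and 0 called related genes held in all 18 alternative fits and at an adjusted p under 0.10, and with library size alone 0 single members passed the exact permutation test. The filter of at least 10 counts in every library left 2 mast cell genes, Kit and Gata2, and 29 related genes, so it says nothing of the others, and DESeq2 adjusted 5 mast cell genes. Over the whole table, 7 genes were called, against 65 in the edgeR exact test, 133 with DESeq2, 25 with limma-voom, 13 at an adjusted p under 0.10, 3 with the Y-linked covariate, 2 with no filter on low counts and 2 to 5 with 1 library left out. A looser threshold and fewer libraries change the count by construction, and for the tools the cause was not tested.

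The replicate block called 2 genes and no mast cell gene. Deviations of same-numbered libraries correlated at -0.14, -0.28, -0.14 and 0.08. The labels name no pairing, and these values cannot decide whether same-numbered animals had more in common than a number.

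Directions that turned, all without a call, were Tpsb2 (0.41 without WT replicate 1), Kit (-0.069 with limma-voom, -0.085 without MGL KO replicate 4), Hdc (-0.14 with limma-voom, -1.44 without MGL KO replicate 4) and Gata2 (0.092 without MGL KO replicate 2, 0.03 without WT replicate 2). With 1 library left out in turn, log2 fold changes ran from -1.29 to -0.29 for Mcpt4, -2.49 to -0.22 for Cma1, -1.73 to 0.41 for Tpsb2, -0.085 to 0.24 for Kit, -1.44 to 2.72 for Hdc and -0.22 to 0.092 for Gata2. With MGL KO replicate 4 and WT replicate 1 both left out, a setting added after the data were seen, 2 genes were called, and Cma1 was at 0.031, Tpsb2 at 0.62, Kit at -0.10 and Hdc at -0.61. Hdc fell to 0.64 with the replicate block and 0.12 with the Y-linked covariate.

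The summed level of the 10 genes in MGL KO over WT was 1.14 and ran from 0.490 without Kit, Gata2 and Hdc to 1.57 relative to the fibroblast list, and from 0.753 to 1.37 with 1 library left out, 0.753 being the value without MGL KO replicate 4. At 10 or fewer counts over 8 libraries, depth limits any statement on Ms4a2 and Fcer1a.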
